A study of Homo sapiens with 4 samples.

Results

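The transcripts described here are those of DHRS2, PBK, ABT1, DNTTIP1, DESI1, PAWR and CACUL1 in HEK293T cells, 7 of the 20319 genes with enough counts to be tested and of 69222 gene identifiers in all. They were chosen because each was lower in both libraries of an RPRD1B knockdown than in both control libraries, so that direction is a description and carries no test. HEK293T cells derive from human embryonic kidney and express the large T antigen of SV40. The cells were transduced with a lentivirus that encodes a short hairpin RNA (shRNA), either against RPRD1B (shRPRD1B, 2 libraries) or a control hairpin (shCtrl, 2 libraries), so both groups carry a lentiviral hairpin. RPRD1B is a protein that binds the phosphorylated C-terminal domain of RNA polymerase II. Poly(A) RNA was sequenced and read counts of each gene were deposited. A single hairpin label stands for the knockdown, and the labels give no time after transduction.

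The 7 gene products have separate jobs and are not known as members of 1 pathway. DHRS2 is a short-chain dehydrogenase/reductase that reduces dicarbonyl compounds. PBK, also called TOPK, is a serine/threonine kinase related to the MAP kinase kinases and active in mitosis. ABT1 binds the TATA-binding protein TBP, and its yeast counterpart works in the early maturation of small-subunit ribosomal RNA. DNTTIP1 is a subunit of MiDAC, a deacetylase complex that also holds HDAC1 or HDAC2. DESI1 is an isopeptidase that removes SUMO, a small ubiquitin-like modifier, from proteins. PAWR, also called Par-4, is a leucine zipper protein that promotes apoptosis and binds WT1 and atypical protein kinase C. CACUL1 holds a cullin domain, binds CDK2 and is linked to the entry into S phase.

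All 7 transcripts share a short word in the 3′ UTR, the part of an mRNA between the stop codon and the poly(A) tail, where small RNAs and RNA-binding proteins often bind. The word is ACTAGCA, and its first 6 bases are ACTAGC. It was first picked out in earlier work on the fold changes of these same libraries, so its presence in transcripts chosen as lower is a description and not independent evidence. The sites are shown because they are the feature the 7 have in common; each is 30 bases of the GENCODE 29 transcript (GRCh38), 5′ to 3′, with the word in capitals. Sites of PBK are given by position only, and of the 4 sites of CACUL1 the first and the last are shown.
DHRS2, chr14:23645346-23645375, plus strand: cattctgccagACTAGCAatttgggggctt
ABT1, chr6:26598846-26598875, plus strand: catactgtcatACTAGCAtaattatgacta
DNTTIP1, chr20:45811338-45811367, plus strand: agcacccccagACTAGCAtgtggttctata
DESI1, chr22:41598872-41598901, minus strand: ttagagcagaaACTAGCAgggactgttgta
DESI1, chr22:41598841-41598870, minus strand: aatcgtgatctACTAGCAgaattgggccca
DESI1, chr22:41598498-41598527, minus strand: cccccctttatACTAGCAgccatttgtgcc
PAWR, chr12:79587164-79587193, minus strand: ggacgtattccACTAGCAagccagtaaatt
PAWR, chr12:79586822-79586851, minus strand: accagatagacACTAGCAagcaaaacttcc
CACUL1, chr10:118682558-118682587, minus strand: tctgtacgcatACTAGCAaaggtaatggtg
CACUL1, chr10:118678121-118678150, minus strand: ggaccccaaacACTAGCAggcatttcacag

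DHRS2, ABT1, DNTTIP1 and PBK each hold the 7-base word once, PAWR holds it 2 times, DESI1 3 times and CACUL1 4 times. A second PBK transcript in the annotation, with a 3′ UTR of 104 bases, lacks it. PBK holds 1 further copy and CACUL1 2 further copies of the first 6 bases alone. Set beside the copies, the knockdown mean as a share of the control mean was 13.9% for DHRS2, 46.0% for PBK, 48.2% for ABT1 and 51.4% for DNTTIP1 with 1 copy, 49.8% for PAWR with 2, 52.0% for DESI1 with 3 and 58.5% for CACUL1 with 4. Whether the number of copies has a part in these shares was not tested, and the 3′ UTRs differ in length.

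The 3′ UTRs that hold the word are of very unequal length. They run from 232 bases in DNTTIP1, 386 in DHRS2 and 685 in PBK, through 2099 in ABT1 and 3069 in DESI1, to 7733 in PAWR and 9717 in CACUL1, against a median of 1108 over 13854 tested protein-coding genes with a 3′ UTR of known sequence. In DHRS2 the word begins at base 104 of the 3′ UTR, in ABT1 at base 212, in DNTTIP1 at base 154 and in PBK at base 258. DESI1 carries its 3 copies late, from bases 2207, 2238 and 2581, and the first 2 of them begin 31 bases apart by these positions. PAWR holds its copies at bases 5425 and 5767. The word lies nearer the stop codon than the 3′ end in DHRS2, ABT1 and PBK, and nearer the 3′ end in DNTTIP1, DESI1 and PAWR.

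**Figure D1:**
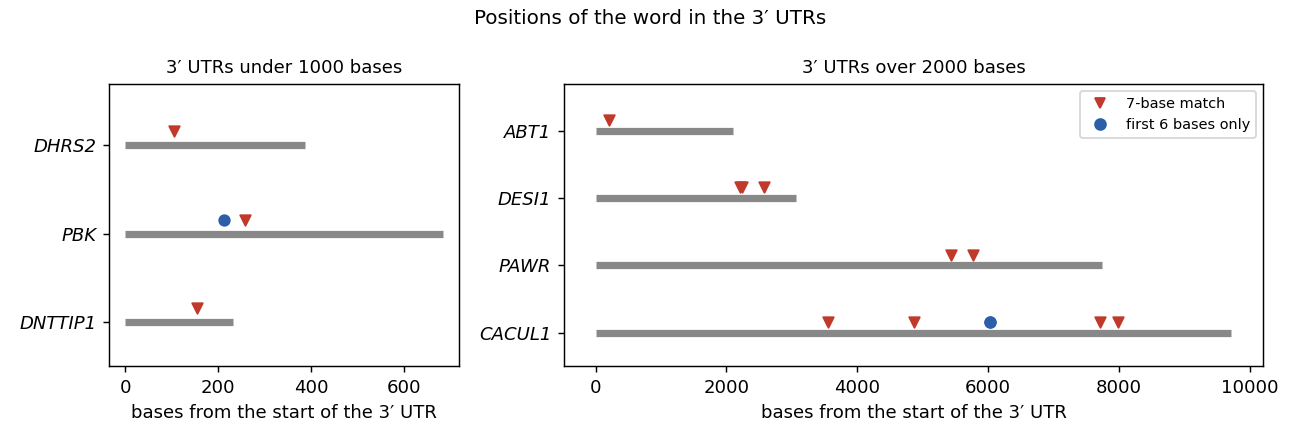
Positions of the word along the 3′ UTR of each of the 7 transcripts, drawn to scale in bases from the start of the 3′ UTR (1 transcript per gene, left for lengths under 1000 bases and right for lengths over 2000). Triangles mark the 7-base word and circles its first 6 bases alone (the single circle of CACUL1 covers 2 copies, at bases 6020 and 6029); each of the 7 lines has at least 1 triangle, from 1 in DHRS2 to 4 in CACUL1.

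Most tested genes lack the word, and genes that have it were found on both sides of the control level. ACTAGCA occurs in the 3′ UTR of 751 of the 13854 genes (5.42%) and ACTAGC in 2012 (14.5%). A long 3′ UTR holds any word more often, so the share was also taken by length. From 200 to 1000 bases, the class of DHRS2, PBK and DNTTIP1, 1.15% of 5037 genes hold ACTAGCA. From 2000 to 4000 bases, the class of ABT1 and DESI1, the share is 8.75% of 2708 genes. From 4000 to 8000 bases, the class of PAWR, it is 18.6% of 1278, and above that, the class of CACUL1, 33.0% of 264. Of the 751 genes with the word, 243 (32.4%) were lower in both shRPRD1B libraries than in both shCtrl libraries, against 19.5% of the 13103 genes without it, and 20 (2.66%) had a mean at or below 0.5 times the control mean, against 1.67%. These counts include the 7 themselves; without them the shares with the word are 31.7% and 2.15% of 744 genes. A negative fold change was given by 425 (56.6%) of the genes with the word and 46.0% of those without it. The median log2 fold change was -0.04 with the word and 0.02 without it. Genes with and without the word were not matched for 3′ UTR length. The word was picked out on the fold changes of these same libraries, so these differences in direction are a description, also without the 7. They are not independent evidence. Whether the word has a part in the differences was not tested.

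The word was also read in the targeted transcript and in small RNAs. RPRD1B does not hold ACTAGCA in its 3′ UTR, but holds it once in its coding sequence, at base 708 of 981, as do the coding sequences of 4.48% of the 13854 genes. That site is shown for comparison.
RPRD1B, chr20:38066122-38066151, plus strand: gcatgtctgttACTAGCAgaatataacggg
The longest unbroken run shared with it around the word is 12 bases, at the second DESI1 site, and the runs at the other member sites are 7 to 9 bases. How often sites of the word in other genes share such a run was not counted. None of the 2370 mature human miRNAs listed by RefSeq (GRCh38.p14) has bases 2 to 8 complementary to ACTAGCA. A match of bases 2 to 7 to ACTAGC was not searched. The sequence of the hairpin was not used here.

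Other features of the 3′ UTR were not held by all 7. The poly(A) signal AATAAA occurs in 6 of the 7, against 80.7% of all genes, and DNTTIP1 lacks it but holds the variant ATTAAA. The AU-rich word ATTTA occurs in 6, against 69.6% of all, and the Pumilio word TGTANATA in 2, PAWR and CACUL1, against 27.7%. A match of letters is a description and not a binding site.

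The libraries are described once here. Total counts were 47732913 and 48494258 in shCtrl 1 and 2 and 65572391 and 54722140 in shRPRD1B 1 and 2. CPM is the count scaled to the TMM-adjusted size of each library. The labels do not say that the 2 libraries of a group came from separate cultures, so errors and p-values speak only of how far these samples differ, and that spread may be technical. The targeted gene RPRD1B stood at 50.4 and 50.1 CPM in shCtrl and at 27.2 and 35.5 CPM in shRPRD1B. Both knockdown libraries were below the controls and lay 0.38 apart in log2 CPM. The RPRD1B mean in shRPRD1B was 0.624 times the control mean (log2 fold change -0.68 ± 0.16, SE). The edgeR test did not call RPRD1B (adjusted p = 0.448). Of 10 markers of the line, 9 were measured, summing to 594 to 612 CPM in shCtrl and 494 to 632 CPM in shRPRD1B. Markers of leukocytes, epithelium and endothelium each summed to under 7 CPM, with KRT5 and KRT19 at 0 counts in every library. Fibroblast markers (3 of 5 measured, COL1A2 at 0) summed to 32.9 to 37.4 CPM in shCtrl and 21.5 to 23.4 CPM in shRPRD1B. The part of these markers in the differences below was not tested.

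Of the 7 transcripts, 6 stood at 46.0% to 58.5% of the control level and the remaining one, DHRS2, far lower, at 13.9%. In bulk RNA, fewer cells with a transcript and less of it per cell cannot be told apart. The rule made all 7 lower in both libraries, which holds for 20.6% of all tested genes. A mean at or below 0.5 times the control mean was reached by 4 of the 7 (DHRS2, PBK, ABT1 and PAWR), against 2.81% of all tested genes, and both shares follow from the choice. The median log2 fold change of the 7 was -1.01, against 0.00 over all tested genes.

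DHRS2, the dehydrogenase, had 11.4 and 12.3 CPM in shCtrl 1 and 2 and 1.39 and 1.92 CPM in shRPRD1B 1 and 2. These levels rest on 538 and 601 counts in the control libraries and only 91 and 105 in the knockdown libraries. The mean was 11.9 ± 0.702 CPM in shCtrl and 1.65 ± 0.372 CPM in shRPRD1B (SD, n = 2 each), which is 7.17-fold lower (log2 fold change -2.85 ± 0.23, SE). DHRS2 was therefore not halved: it was lower than that in each knockdown library, at 11.7% and 16.2% of the control mean.

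PBK, the mitotic kinase, had 55.3 and 59.2 CPM in shCtrl and 26.7 and 26 CPM in shRPRD1B. The knockdown values were 0.04 apart on the log2 scale and the control values 0.10 apart. The log2 fold change of PBK was -1.12 ± 0.12 (SE), and its knockdown mean of 26.3 ± 0.496 CPM (SD, n = 2) was 46.0% of the control mean. The annotation has ESCO2, a cohesin acetyltransferase gene, overlapping PBK on the opposite strand. The strand setting of the counting is not given in the sources used here, so reads in the overlap cannot be told apart. ESCO2, named for that overlap, was not lower, at 22.6 and 26.6 CPM in the group means.

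ABT1, the TBP-binding ribosome factor, had 133 and 131 CPM in shCtrl and 66.5 and 60.8 CPM in shRPRD1B. Its mean went with a log2 fold change of -1.05 ± 0.11 (SE), from 132 ± 1.62 to 63.6 ± 4.03 CPM (SD, n = 2 each). A pseudogene copy, ABT1P1, had at most 2 counts in any library, while ABT1 itself had between 3331 and 6363.

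DNTTIP1, the MiDAC subunit, had 78.3 and 79.4 CPM in shCtrl and 41.1 and 40.0 CPM in shRPRD1B. With PBK it was the most even of the 7 in the knockdown libraries, which were 0.04 apart on the log2 scale. Its control libraries were 0.02 apart. The mean was 78.8 ± 0.779 CPM in shCtrl and 40.5 ± 0.753 CPM in shRPRD1B (SD, n = 2 each), a log2 fold change of -0.96 ± 0.11 (SE).

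DESI1, the SUMO isopeptidase, was the most abundant of the 7 in CPM, with 201 and 197 CPM in shCtrl and 108 and 98.8 CPM in shRPRD1B. The knockdown mean of 104 ± 6.62 CPM was 52.0% of the control mean of 199 ± 3.0 CPM (SD, n = 2 each), and the log2 fold change was -0.94 ± 0.11 (SE).

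PAWR, the pro-apoptotic zipper protein, had 89.4 and 91.4 CPM in shCtrl and 42.2 and 47.8 CPM in shRPRD1B. Its knockdown mean was 49.8% of the control mean (log2 fold change -1.01 ± 0.12, SE). PAWR was lower in shRPRD1B 1 than in shRPRD1B 2, as were CACUL1 and DHRS2, while the other 4 transcripts were lower in shRPRD1B 2.

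CACUL1, the CDK2-binding cullin-domain protein, had 77.1 and 81.3 CPM in shCtrl and 43.9 and 48.8 CPM in shRPRD1B. With a knockdown mean of 46.3 ± 3.47 CPM (SD, n = 2), 58.5% of the control mean, it had the smallest difference of the 7 (log2 fold change -0.77 ± 0.12, SE).

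**Figure D2:**
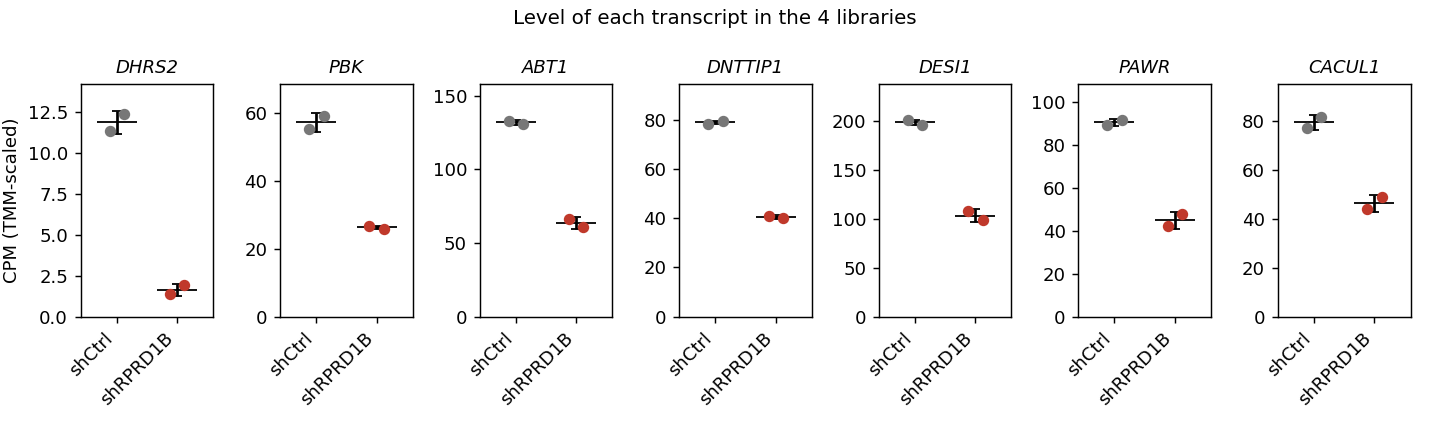
CPM of each of the 7 transcripts in the 4 libraries, 1 panel per gene with its own vertical axis from 0; points are libraries, horizontal bars group means and error bars SD (n = 2 each). In each panel both shRPRD1B points lie below both shCtrl points, as the choice of the genes requires, and the shRPRD1B mean of DHRS2 (1.65 CPM) is 13.9% of its shCtrl mean.

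The 95% intervals of the fitted log2 fold changes of PBK, ABT1, DNTTIP1, DESI1, PAWR and CACUL1 overlap one another. The interval of DHRS2 lies below those of the other 6. Summed over the 7, the transcripts made up 645 and 651 CPM in shCtrl 1 and 2 and 330 and 324 CPM in shRPRD1B 1 and 2.

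Evenness between the knockdown libraries was measured as their distance in log2 CPM (prior count 2). It was 0.04 for DNTTIP1 and PBK, 0.13 for ABT1 and DESI1, 0.15 for CACUL1, 0.18 for PAWR and 0.45 for DHRS2. Over 11541 tested genes with a mean of at least 5 CPM the median distance was 0.25 between the shRPRD1B libraries and 0.07 between the shCtrl libraries. A narrower background, set after the values were seen, was the 102 genes of at least 5 CPM that were lower in both libraries and had a mean at or below 0.6 times the control mean. The 7 are themselves among these 102, so they are also ranked against one another. The median distance of the 102 was 0.54. Of these 102, 4 had a smaller distance than DNTTIP1, 5 than PBK, 11 than ABT1, 13 than DESI1, 16 than CACUL1, 21 than PAWR and 44 than DHRS2. The 7 were proposed as evenly halved, so these ranks are a description.

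**Figure D3:**
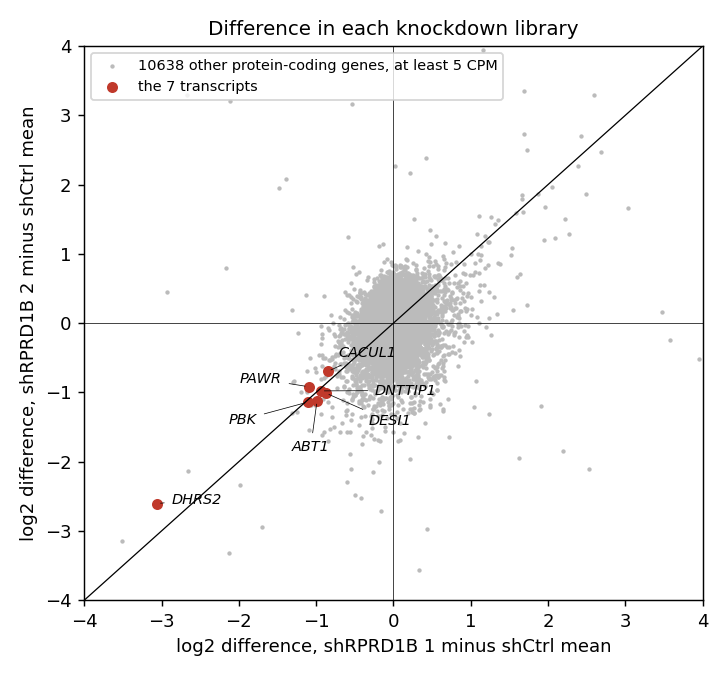
Log2 difference from the shCtrl mean in shRPRD1B 1 (horizontal) and shRPRD1B 2 (vertical) for the 7 transcripts and 10638 other protein-coding genes of at least 5 CPM; the diagonal marks an equal difference in both libraries, and 7 genes lie outside the axes. Of the 7, 6 lie close to the diagonal near -1 on both axes, and DHRS2 lies at -3.06 and -2.61.

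Levels can be compared between genes only per length of transcript. Per kilobase of the chosen transcript, the shCtrl means were 61.1 CPM for DNTTIP1, 51.9 for DESI1, 44.7 for ABT1, 27.0 for PBK, 9.90 for PAWR, 7.0 for CACUL1 and 6.95 for DHRS2, against a median of 7.57 over the 13854 genes. The control libraries of CACUL1 and DHRS2 overlapped in this order, and no other neighbours in it did. In shRPRD1B the order was the same, from 31.4 CPM per kilobase for DNTTIP1 to 4.10 for CACUL1 and 0.969 for DHRS2. By this measure the 7 span genes near the median level and genes in the upper part of the range. It takes the full annotated length, and the 3′ UTR length used in these cells was not measured.

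The genes whose profile over the 4 libraries was nearest to the mean profile of the 7 were ANXA5, DUT, POLR1F, HNRNPA0 and NANOS1. Likeness was the Euclidean distance of log2 CPM, centred on the shCtrl mean, among 10676 protein-coding genes of at least 5 CPM. The distances ran from 0.085 for ANXA5, a calcium-dependent phospholipid-binding protein, to 0.28 for NANOS1, an RNA-binding protein. The distance of 0.13 belonged to DUT, the enzyme that hydrolyses dUTP. POLR1F, a subunit of RNA polymerase I, had 81.3 and 78.1 CPM in shCtrl and 34.7 and 39.9 CPM in shRPRD1B. HNRNPA0, an RNA-binding protein, had 396 and 396 CPM in shCtrl and 182 and 199 CPM in shRPRD1B. DHRS2 pulls the mean profile down, to -1.27 in shRPRD1B 1 and -1.21 in shRPRD1B 2. Each of the 7 except DHRS2 lay above these values, so the nearest genes match a profile lower than theirs. DHRS2 itself, at a distance of 2.27, was farther from the mean profile than 10129 of the 10676 genes. All 5 hold ACTAGC in the 3′ UTR (14.5% of 13854 genes do), and ANXA5, HNRNPA0 and NANOS1 hold ACTAGCA (5.42% do). The 5 were picked by the same contrast, so this too is a description.

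Genes next to the 7 on the chromosome were mostly not lower. The nearest tested protein-coding start site on each side gave 14 neighbours, with a median log2 fold change of 0.10. Both shRPRD1B libraries lay below both shCtrl libraries for 2 of them, SCARA5 and NANOS1, and above for 5, against 20.6% and 20.3% of all tested genes. None of the 14 was called by edgeR (0.0689% of tested genes were called), and 1, NANOS1, was at an unadjusted p under 0.05. XRCC6, a DNA end-joining factor whose start site lies 23 bases from that of DESI1, had 1112 and 1076 CPM in shCtrl and 1136 and 1234 CPM in shRPRD1B (log2 fold change 0.11 ± 0.11, edgeR adjusted p = 0.803). UBE2C, the ubiquitin-conjugating enzyme of the anaphase-promoting complex, lies 20.6 kb from DNTTIP1 and had 177 and 166 CPM in shCtrl and 194 and 184 CPM in shRPRD1B (0.14 ± 0.11, edgeR adjusted p = 0.76). WFDC3, with its start site 5 bases from that of DNTTIP1, stood under 0.5 CPM in each library, too low to compare. HMGN4 and ZNF322 beside ABT1 gave -0.06 ± 0.16 and 0.26 ± 0.14. SYT1 and PPP1R12A beside PAWR gave 0.41 ± 0.17 and 0.22 ± 0.17. The exception was NANOS1, 274 kb from CACUL1, with 13.1 and 14.9 CPM in shCtrl and 6.87 and 6.13 CPM in shRPRD1B (-1.10 ± 0.17, edgeR adjusted p = 0.213), while FAM204A on the other side of CACUL1 gave 0.08 ± 0.11.

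**Figure D4:**
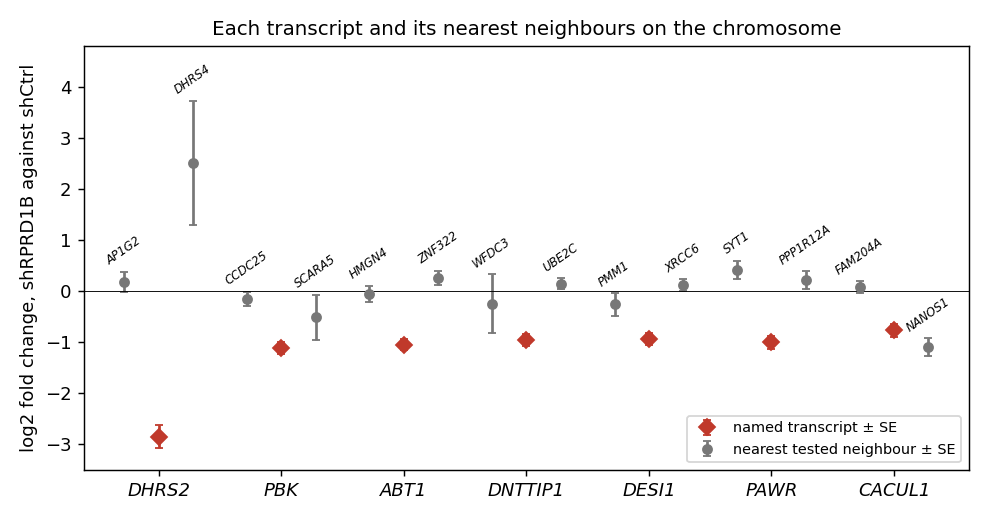
Log2 fold change (shRPRD1B against shCtrl, with SE) of each of the 7 transcripts (diamonds) and of the nearest tested protein-coding gene on each side (circles). Most circles lie near 0; NANOS1, beside CACUL1, lies at -1.10, and the wide error bar of DHRS4 belongs to a gene of under 3 CPM in each library.

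Promoters of the 7 had no searched motif in common. RefSeq (GRCh38.p14) gave 6 of the 7 start regions, 250 bases before to 50 after the start, with none for PBK. Searched on both strands, GGGCGG was in 5 of the 6 (69.5% of 11226 promoters of tested genes hold it), CCAAT in 2, ABT1 and DESI1 (36.3% of all), TATAAA in DHRS2 alone (5.78%), TGACGTCA in DNTTIP1 alone (3.14%) and CACGTG in CACUL1 alone (9.85%). TTTGAA and TTTGGCGC were in none of the 6 (9.58% and 1.02% of all). The promoter of DHRS2 also differed in composition, with 44.0% G and C and 0 CpG, against medians of 65.3% and 26. The other 5 had between 19 (ABT1) and 44 (PAWR) CpG.

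Genes related to the 7 by function were then read in the same fit. They form 7 lists taken by known function, though with earlier results of these data known. None of the 134 tested genes of the 7 lists was called by edgeR (quasi-likelihood test, Benjamini-Hochberg adjusted p over all genes, smallest adjusted p = 0.388). Of all tested genes edgeR called only 0.0689%, so the lack of calls in lists of this size says little. Before adjustment, 3 of the 134 were higher and 5 of the 134 lower at p under 0.05, against 3.55% and 3.94% of all tested genes. DESeq2 called 1 of them, MAPK13 (adjusted p = 0.0177; 1.18% of all tested genes were called by DESeq2), and limma voom 0. For 22 (16.4%) both knockdown values were below both control values, and for 39 (29.1%) above them, against 20.6% and 20.3% of all tested genes. With single libraries left out the counts moved: without shRPRD1B 1 edgeR called 48 higher and 20 lower (14.6% and 14.4% of all genes tested there) and without shRPRD1B 2 it called 9 higher and 13 lower (5.91% and 4.47% of all), in fits where the lone knockdown library is assumed to vary like the control libraries, while without shCtrl 1 or shCtrl 2 it called 0. The median log2 fold change of the 134 was 0.06.

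Of 11 tested DHRS family genes and their kin, 5 had negative fold changes and the list median was 0.02. DHRS7B, a peroxisomal reductase, had 31.0 and 28.4 CPM in shCtrl and 24.2 and 21.8 CPM in shRPRD1B (-0.37 ± 0.13, edgeR adjusted p = 0.657). DHRS11 differed widely within the control group, at 11 and 1.89 CPM, and had 0.656 and 2.26 CPM in shRPRD1B. DHRS4, the family member nearest to DHRS2 on the chromosome, stayed below 3 CPM in each library.

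Around PBK, the list held the MAP kinase kinases, the p38 kinases, ERK1 and ERK2, and mitotic partners such as CDK1, cyclin B1 and PRC1. Its median over 17 tested genes was 0.02, with 8 negative. MAPK13, the p38 delta kinase, had 20.4 and 23.9 CPM in shCtrl and 13.5 and 13.2 CPM in shRPRD1B (-0.73 ± 0.15, edgeR adjusted p = 0.388). MAP2K1, which activates ERK1 and ERK2, had 90.2 and 92.3 CPM in shCtrl and 73.1 and 71.8 CPM in shRPRD1B (-0.33 ± 0.11, edgeR adjusted p = 0.604). Only these 2 of the list had an unadjusted p under 0.05, and both knockdown libraries of each were below the controls, by less than for PBK.

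For ABT1 the list was the small-subunit processome, the large assembly in which the small ribosomal subunit begins to form, with TBP. Over 31 tested genes the median was 0.04, and the fold changes lay between -0.34 and 0.37. DDX49, the human counterpart of the helicase that works with the yeast ABT1 homologue, had 148 and 132 CPM in shCtrl and 118 and 107 CPM in shRPRD1B (-0.31 ± 0.12, edgeR adjusted p = 0.664). EMG1, a methyltransferase of ribosomal RNA, gave -0.34 ± 0.17. No tested processome gene came near the log2 fold change of ABT1.

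The subunits of MiDAC and of other class I deacetylase complexes had a median of 0.09 over 17 tested genes, between -0.29 and 0.38. RBBP7, a histone-binding subunit, had 519 and 522 CPM in shCtrl and 437 and 414 CPM in shRPRD1B (-0.29 ± 0.11, edgeR adjusted p = 0.657). MTA2, of the NuRD complex, had 282 and 283 CPM in shCtrl and 318 and 347 CPM in shRPRD1B (0.23 ± 0.11, edgeR adjusted p = 0.69). DNTTIP1 lay outside the range of these genes.

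For DESI1, the SUMO conjugation and removal genes had a median of 0.09 over 20 tested members, between -0.25 and 0.45. USPL1, another SUMO isopeptidase, had 23.6 and 25.0 CPM in shCtrl and 28.4 and 37.9 CPM in shRPRD1B (0.45 ± 0.17, edgeR adjusted p = 0.66). SENP2, a SUMO protease, had 76.9 and 80.1 CPM in shCtrl and 87.1 and 106 CPM in shRPRD1B (0.30 ± 0.14, edgeR adjusted p = 0.685). Both lay above the controls in both knockdown libraries, opposite to DESI1, but neither passed the test.

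Binding partners of PAWR and apoptosis regulators had a median of -0.01 over 18 tested genes, of which 10 were negative. BCL2, the apoptosis inhibitor, had 9.37 and 9.10 CPM in shCtrl and 11.8 and 12.6 CPM in shRPRD1B (0.40 ± 0.16, edgeR adjusted p = 0.66). SPSB4, an adaptor of a ubiquitin ligase, had 22.4 and 20.2 CPM in shCtrl and 40.7 and 24.1 CPM in shRPRD1B, and did not pass (0.61 ± 0.26, edgeR adjusted p = 0.679).

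The cullins, their RING and NEDD8 partners and CDK2 with its cyclins had a median of 0.13 over 20 tested genes, the largest list median of the 7. Fold changes lay between -0.28 and 0.35, and the lower end is NEDD8, with only 14 to 17 counts in each library. CDK2, the partner of CACUL1, had 82.2 and 80.2 CPM in shCtrl and 106 and 95.7 CPM in shRPRD1B (0.32 ± 0.12, edgeR adjusted p = 0.656). CUL7 had 29.4 and 31.5 CPM in shCtrl and 35.5 and 36.1 CPM in shRPRD1B (0.23 ± 0.12, edgeR adjusted p = 0.702). Both knockdown libraries were above both controls for 9 of the 20 and below for 3, against 20.3% and 20.6% of all tested genes.

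**Figure D5:**
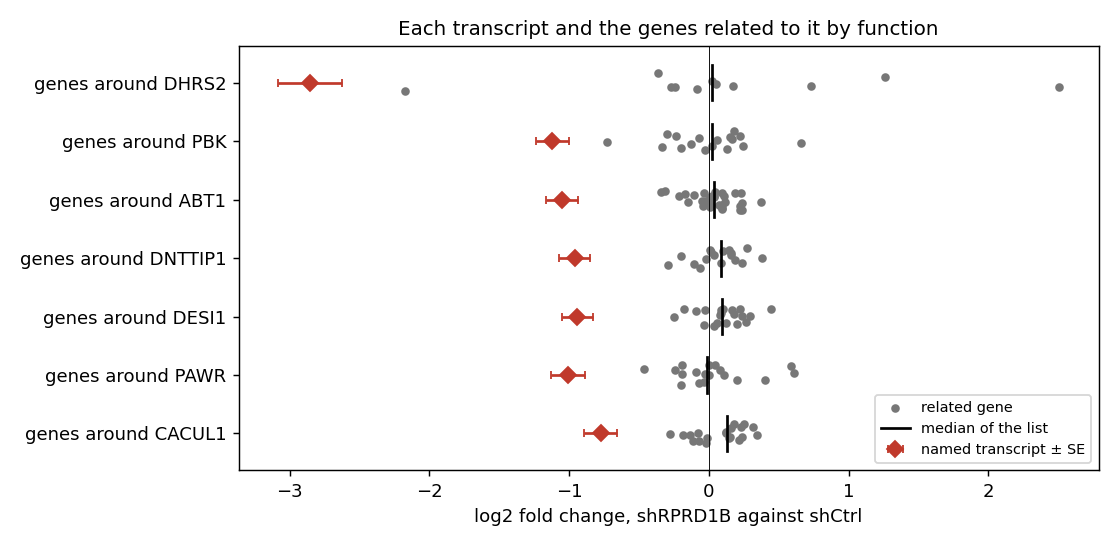
Log2 fold change (shRPRD1B against shCtrl) of each of the 7 transcripts (diamonds, with SE) and of the tested genes related to it by function (points, with the list median as a vertical bar). The list medians lie between -0.01 and 0.13 and each diamond lies to the left of the genes of its list.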

How the data were processed

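Read counts per gene were deposited by the authors, 1 file per sample, as whole numbers without normalization. The submitters' processing notes name Trim Galore, HISAT2, featureCounts and the genome hg38. For versions, annotation, strand setting and multi-mapped reads, nothing is stated in the sources used here.

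The 7 genes and the lists of related genes and markers were chosen with earlier results of these data known. The raw counts, unchanged, had library totals between 47732913 and 65572391. The test was edgeR 4.0.16 (R 4.3.3), with the quasi-likelihood fit using adjusted deviances and robust estimation, TMM factors, filterByExpr with a minimum count of 10, the group as only term, and Benjamini-Hochberg adjustment over 20319 genes at 0.05. Log2 fold changes, SEs and 95% intervals come from that fit. It was tested on simulated counts. Symbols were matched by gene identifier.

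Genes were named by a rule: the 7, RPRD1B, per list any called gene and otherwise the 2 with the smallest p, the 5 nearest profiles and the nearest tested neighbours. Markers and ESCO2 are exceptions. Sequences, lengths and positions came from GENCODE 29 (GRCh38), 1 protein-coding transcript per gene, preferring basic and principal ones, and promoters and miRNAs from RefSeq. The alternatives were other size factors, DESeq2 1.42.0, limma voom (3.58.1), other filters, the replicate number as a block and leaving out each library. The older edgeR fit was added after the data had been seen.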

Additional observations from a re-analysis of the deposited data

How the results depend on the processing

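Under all 13 alternatives in which they were fitted, the log2 fold changes of the 7 transcripts stayed negative. With 1 library left out they ranged from -3.09 to -2.63 for DHRS2, -1.17 to -1.07 for PBK, -1.12 to -0.99 for ABT1, -0.98 to -0.94 for DNTTIP1, -1.01 to -0.88 for DESI1, -1.10 to -0.92 for PAWR and -0.85 to -0.70 for CACUL1, a direction that the choice of the genes fixes. Counts of called genes depended on the setting. Against 6 higher and 8 lower genes, there were 0 and 0 with at least 5 CPM in 2 libraries and with limma voom, 126 and 114 with DESeq2, 23 and 17 when no gene was filtered out, and 4 and 3 under the older edgeR fit. With 1 library left out, 12 to 3139 genes were called higher and 36 to 3096 lower, and of the related genes 0 to 48 higher and 0 to 20 lower, against 0. DESeq2 called 1 related gene lower. The labels do not say that replicate numbers pair the samples. Deviations of same-numbered samples correlated at 0.15 over 11541 genes, and with the replicate number as a block 85 genes were called higher and 56 lower, of the related genes 1 (DHRS4) higher. The cause of these changes was not tested. With 2 libraries a group, an exact permutation test of a single gene cannot give a two-sided p below 0.333.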
